A study of Mus musculus with 6 samples.

Results

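Anapc15, Myo5a, Rftn1, Bcar3, Lama3, Dkk2, Plek, Apobec1, Gm13391 and Selenop are 10 of the 32285 genes counted in single nuclei of LPA-injected and vehicle-injected neonatal mouse brains. They were picked by symbol because they were higher in the microglia of LPA-injected brains than in those of vehicle-injected brains. Their level in microglia between these groups is therefore described below without a test. Tests were kept for what did not choose them. These were their level in macrophages and in 9 other cell populations, and the microglial level of partner genes. Partner genes here mean listed complex members, receptors, cofactors and relatives of the 10, so not only genes whose products act with theirs.

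The 10 genes do not belong to a single pathway. Microglia, the resident phagocytes of the brain, leave their homeostatic state after injury, lower genes such as Tmem119 and raise genes of phagocytosis, lysosomes and secreted matrix proteins, among them Spp1 (osteopontin) and Gpnmb. Among the 10, the products of Lama3, Dkk2 and Selenop are secreted, those of Myo5a, Rftn1, Plek and Bcar3 act at the membrane and the actin skeleton, Anapc15 and Apobec1 encode parts of ubiquitin and RNA editing machinery, and Gm13391 is a long intergenic noncoding RNA of no established function.

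Each library came from 1 C57BL/6 S-56 mouse, given 5 µl of lysophosphatidic acid (LPA, a bioactive lipid of blood) or of vehicle (0.01% BSA) into the right lateral ventricle at postnatal day 7, as a model of post-hemorrhagic hydrocephalus. Both groups had isoflurane anesthesia, flunixin for analgesia and the same surgery, and differed in the LPA, whose concentration for these libraries is not given in the sources used here. Brains without olfactory bulbs and cerebellum were taken at postnatal day 15, nuclei negative for NeuN (a protein of neuronal nuclei) were sorted, and RNA was counted as unique molecular identifiers (UMIs) with the 10x Genomics 3′ kit, version 3, in 3 LPA and 3 vehicle libraries. By Xist and genes of chromosome Y, LPA library 1 and vehicle libraries 1 and 3 were from males and LPA libraries 2 and 3 and vehicle library 2 from females.

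The libraries held 8639 to 12894 barcodes and 48852970 to 65688644 UMIs. Any 2 libraries shared 16 to 39 barcodes, which is 0.211% to 0.400% of the smaller library. Nuclei were named by cell type markers after clustering without the 10 genes. Despite the sort for NeuN-negative nuclei, 1869 to 3533 nuclei per library carried neuronal markers. The LPA libraries held 377, 535 and 416 microglia (library 1, 2 and 3, as in all values below) with medians of 1993, 1810 and 1915 UMIs, and the vehicle libraries held 112, 318 and 97 microglia with medians of 1452, 1473 and 1243 UMIs. Vehicle microglia were thus fewer and shallower, so that 1 UMI weighs most in vehicle library 3. Levels are given as CPM, the UMIs of a gene per 1000000 UMIs of the same nuclei, and errors are SDs over 3 libraries.

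RefSeq gave 14 windows around start sites of 9 of the genes, and 4 are shown here for the motif matches they hold. Each runs from 250 bases before to 50 bases after the start on GRCm38.p6, is written 5′ to 3′ on the strand of the gene, and has in capitals every match, on either strand, to GAGGAA, the core bound by the myeloid factor PU.1, or to CATGTGA, the M-box bound by MITF.
Rftn1, chr17:50190448-50190747, minus strand: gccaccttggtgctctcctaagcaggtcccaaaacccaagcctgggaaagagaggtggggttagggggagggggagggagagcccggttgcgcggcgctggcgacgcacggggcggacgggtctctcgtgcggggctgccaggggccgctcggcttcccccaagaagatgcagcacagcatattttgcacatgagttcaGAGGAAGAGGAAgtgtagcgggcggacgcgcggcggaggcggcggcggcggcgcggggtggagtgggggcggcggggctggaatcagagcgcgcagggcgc
Dkk2, chr3:132085042-132085341, plus strand: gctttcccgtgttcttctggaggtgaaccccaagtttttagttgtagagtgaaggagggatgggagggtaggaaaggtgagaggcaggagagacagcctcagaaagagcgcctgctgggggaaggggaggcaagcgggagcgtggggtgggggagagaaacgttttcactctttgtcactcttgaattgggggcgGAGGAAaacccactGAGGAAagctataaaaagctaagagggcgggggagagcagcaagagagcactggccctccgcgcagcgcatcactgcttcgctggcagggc
Plek, chr11:17008669-17008968, minus strand: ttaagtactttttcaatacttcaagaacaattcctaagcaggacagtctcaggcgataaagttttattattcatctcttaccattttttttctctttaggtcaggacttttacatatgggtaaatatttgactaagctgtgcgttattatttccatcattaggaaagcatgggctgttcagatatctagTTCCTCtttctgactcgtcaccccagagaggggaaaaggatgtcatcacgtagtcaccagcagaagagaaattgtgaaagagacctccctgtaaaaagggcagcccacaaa
Anapc15, chr7:101885610-101885909, plus strand: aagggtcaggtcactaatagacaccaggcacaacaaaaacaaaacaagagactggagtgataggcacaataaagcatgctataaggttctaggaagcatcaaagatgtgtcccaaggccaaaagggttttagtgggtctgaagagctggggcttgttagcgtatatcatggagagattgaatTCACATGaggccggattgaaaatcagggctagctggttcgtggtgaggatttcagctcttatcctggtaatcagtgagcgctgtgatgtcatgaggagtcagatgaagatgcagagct

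GAGGAA was found in 6 of the 14 windows, of Bcar3, Dkk2, Plek, Rftn1 and Selenop, and in 28.3% of the 32851 windows of all genes. Of these, 2 are overlapping windows of Selenop that hold the same site, at -179 and -223. A further window of Bcar3 and of Selenop held no match. The 2 matches of Rftn1 lay at -51 and -45 and those of Dkk2 at -55 and -41, counted from the start site to the first base of the match. CATGTGA was found in 1 window of Anapc15, at -68, but not in its other window, and in 3.99% of all windows. CACGTGA, the E-box of MITF and its relatives, was in none of the 14 and in 3.77% of all windows, and TGANTCA, the site of AP-1, in none and in 7.81%. Binding was not measured, and no window of Lama3 was used.

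All 10 genes were higher in every LPA library than in any vehicle library in microglia, with ratios from 4.14 in Plek upward and with Lama3, Dkk2 and Gm13391 at 0 to 2 UMIs in each vehicle library. How many of all genes separated in this way was not counted. A gene was called where edgeR's quasi-likelihood test gave an adjusted p below 0.05 and the log2 fold change reached 0.25 in either direction. The microglial contrast chose the 10 genes: edgeR called 477 of the 8904 genes tested in microglia higher in LPA libraries (5.36%), and all 10 genes are among these. The median of their fitted log2 fold changes was 3.61, beside -0.02 over all genes tested, and is the same with Gm13391 at the lower bound given below. Markers of cell types moved with them. Summed microglial markers were lower in LPA microglia (6115 to 7062 CPM against 9878 to 11718 CPM), markers of activated microglia were higher (4321 to 5998 CPM against 1060 to 1321 CPM), and so were the 11 macrophage markers (822 to 1155 CPM against 125 to 163 CPM), of which 7 to 9 had a UMI in LPA and 2 to 4 in vehicle libraries. The latter sum was mainly Mrc1 (415, 452 and 502 UMIs against 15, 30 and 7), Dab2 (251, 256 and 321 against 11, 27 and 10) and Ms4a7 (68, 94 and 106 against none). F13a1 had 3, 29 and 12 UMIs in LPA microglia, where macrophages had 403, 348 and 121, Cd163 had 0, 2 and 0, and Mgl2 and Cd209f had none. The part of these shifts in the values of the 10 genes was not tested.

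**Figure D1:**
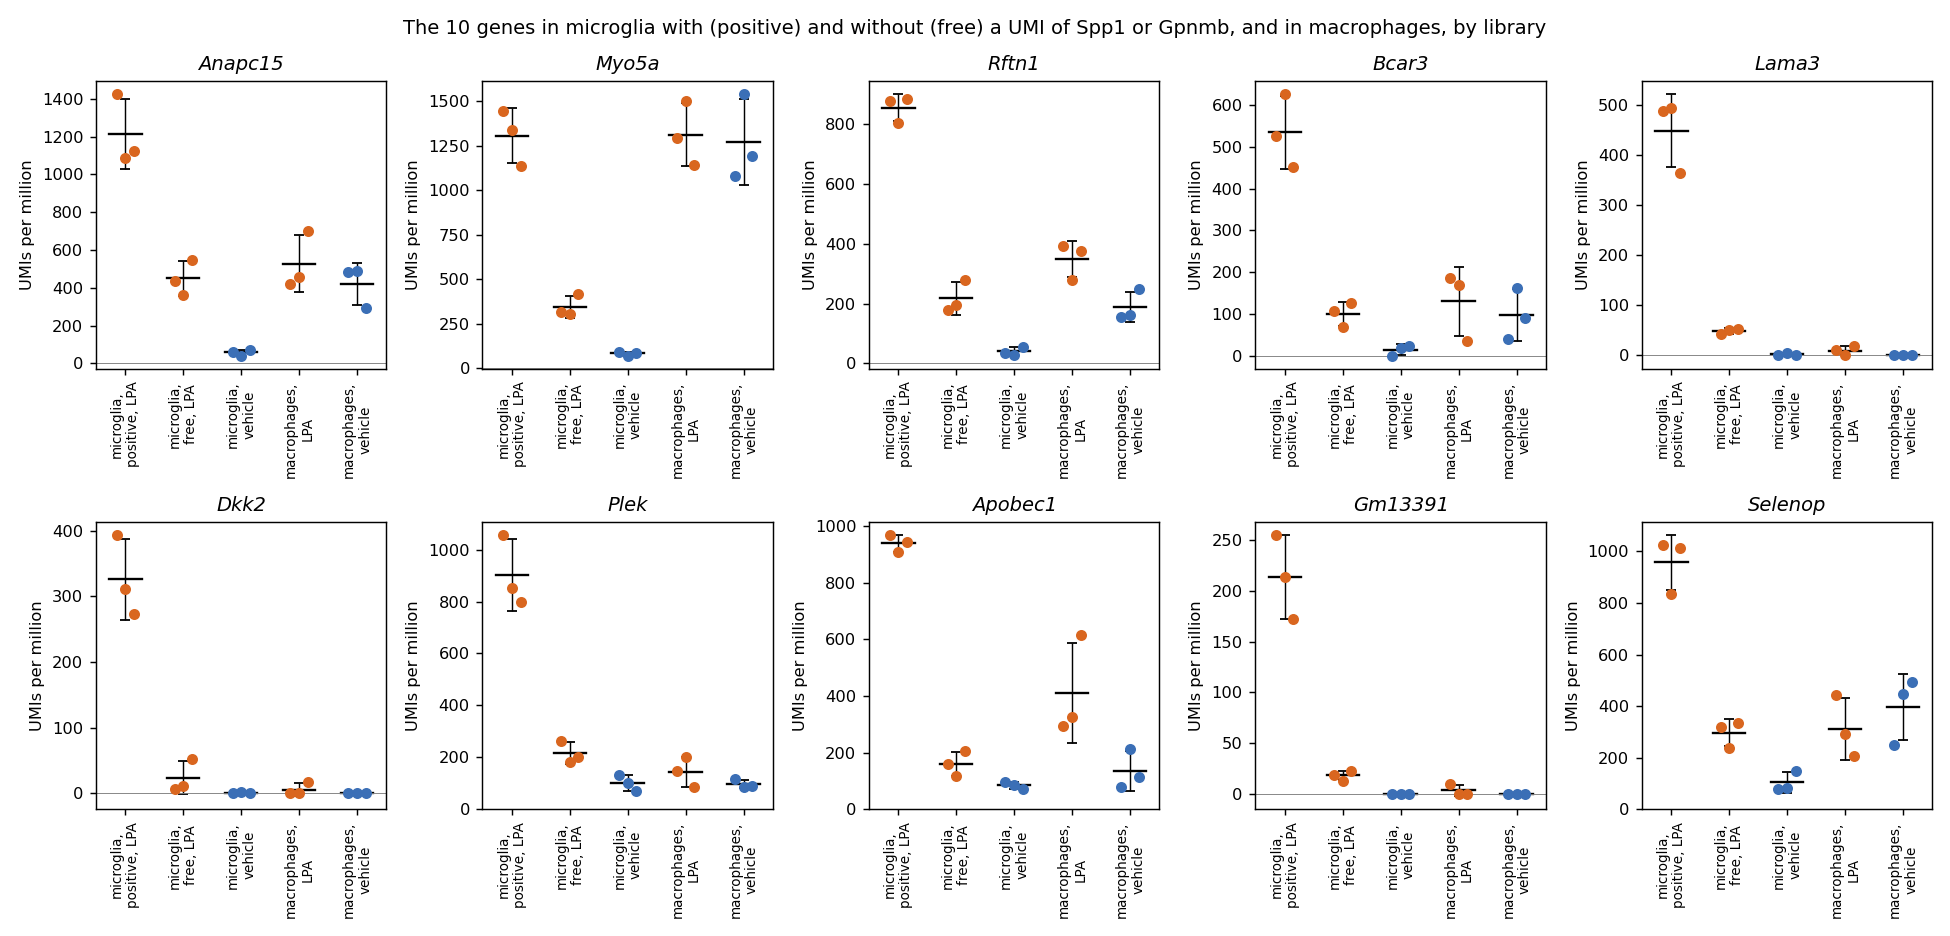
Level in CPM (vertical axis, linear, a scale of its own per gene) of each of the 10 genes in LPA microglia with and without a UMI of Spp1 or Gpnmb (positive and free), vehicle microglia, and LPA and vehicle macrophages, with 1 point per library, LPA in orange and vehicle in blue, a line at the mean and bars of 1 SD (n = 3). In each gene the positive LPA microglia lie above the free ones and these above all vehicle microglia, while in macrophages only Rftn1 and Apobec1 do not overlap between groups. The share of all genes without overlap was not counted.

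Lama3 encodes the α3 chain of laminin, a secreted basement membrane protein best known from epithelia. It had 116, 199 and 134 UMIs in LPA microglia and 0, 2 and 0 in vehicle microglia. Its level was 169 ± 21.7 CPM against 1.39 ± 2.40 CPM, a pooled ratio of 66.1 with an exact 95% counting interval of 18.2 to 547. The width of this interval comes from the 2 vehicle UMIs, both in library 2. Like the intervals below, it covers counting error over UMIs pooled from 3 libraries, not the spread between mice. Dkk2 encodes a secreted Dickkopf protein that binds the Wnt co-receptors Lrp5 and Lrp6. Its UMIs were 78, 111 and 107 in LPA and 0, 1 and 0 in vehicle microglia, or 113 ± 15.1 against 0.694 ± 1.20 CPM. The pooled ratio was 87.1 (15.5 to 3453), so Dkk2 and Lama3 both went from a few stray UMIs to a level found in every LPA library.

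Selenop encodes selenoprotein P, which carries selenium in plasma and between cells. Unlike the other secreted products it was present in vehicle microglia, with 13, 40 and 19 UMIs, and LPA microglia had 379, 443 and 473. This was 498 ± 72.8 CPM in LPA against 104 ± 40.3 CPM in vehicle libraries, 4.79 times as high. The vehicle libraries differed among themselves, from 78.3 to 150 CPM, yet the highest stayed below the lowest LPA library at 429 CPM.

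Myo5a encodes myosin Va, an actin motor that carries vesicles and organelles. LPA microglia had 456, 657 and 551 UMIs and vehicle microglia 15, 34 and 11, which gave 632 ± 38.7 against 82.7 ± 10.5 CPM. Rftn1 encodes raftlin, a lipid raft protein with a part in Toll-like receptor signaling, and had 268, 403 and 405 UMIs in LPA and 6, 14 and 7 in vehicle microglia. Its level was 410 ± 73.9 against 40.2 ± 13.6 CPM. Both genes were thus detected in all 6 libraries, Myo5a 7.65 times and Rftn1 10.2 times as high in LPA as in vehicle libraries.

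Plek encodes pleckstrin, a major protein kinase C substrate of platelets and leukocytes. It was the gene of the smallest difference, with 352, 411 and 339 UMIs in LPA and 22, 49 and 9 in vehicle microglia, or 422 ± 30.8 against 102 ± 30.6 CPM, a ratio of 4.14. Vehicle microglia thus already expressed it in each library. Bcar3 encodes an adaptor that binds the Cas family of focal adhesion proteins. It had 161, 256 and 198 UMIs against 0, 9 and 3, and 232 ± 20.7 against 14.2 ± 12.5 CPM, with a pooled ratio of 15.1 (8.57 to 29.4). Vehicle library 1, with 112 microglia, held none of its UMIs.

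Anapc15 encodes a small subunit of the anaphase-promoting complex, a ubiquitin ligase of the cell cycle. It had 522, 615 and 619 UMIs in LPA and 10, 20 and 9 in vehicle microglia, or 675 ± 77.9 against 57.7 ± 14.95 CPM. The groups were far apart, at 11.7 times. Apobec1 encodes the cytidine deaminase that edits Apob mRNA and is also active in myeloid cells. It had 275, 384 and 383 UMIs against 16, 41 and 9, or 398 ± 58.5 against 84.3 ± 12.6 CPM, a ratio of 4.72.

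Gm13391 had 59, 80 and 62 UMIs in LPA microglia and none among the 772999 UMIs of vehicle microglia. Its levels of 76.6, 77.5 and 75.3 CPM differed little between LPA libraries. Against the limit of 3 counts over the vehicle group this is at least 19.7-fold higher in LPA microglia. Vehicle microglia held fewer UMIs in all than LPA microglia (772999 against 2626314), so a low level there would not have been seen.

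The differences were also present per nucleus at equal depth. After every nucleus was thinned to 1000 UMIs, which left out 13, 11 and 12 LPA microglia, an LPA microglial nucleus held UMIs of 2.06, 1.98 and 2.30 of the 10 genes on average, and a vehicle one of 0.444, 0.383 and 0.411. Nuclei with Anapc15 made up 31.3% to 42.8% of LPA and 4.44% to 4.63% of vehicle microglia, or 45.1% to 58.2% and 5.66% to 6.25% without thinning. In neurons, where Anapc15 was as low as in most other populations and nuclei had medians of 4704 to 6624 UMIs, the thinned share was 0.595% to 0.862%. Lama3 was in 8.24% to 9.90% of thinned LPA nuclei and 0% to 0.330% of vehicle nuclei, beside 0% to 0.351% of oligodendrocytes, which had medians of 4253 to 5908 UMIs and little Lama3, so that its vehicle share was not above that of oligodendrocytes. Without thinning it was in 14.2% to 14.9% of LPA and at most 0.314% of vehicle nuclei, beside 0.250% to 1.61% of oligodendrocytes. Gm13391 was in 4.96% to 6.04% of thinned LPA nuclei (10.1% to 11.8% without thinning), in 0% of vehicle nuclei and in at most 0.0567% of thinned neurons.

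Neurons are no measure of free RNA for Lama3, Plek, Myo5a and Rftn1, which were higher there than in several other populations. Myo5a was in 31.3% to 35.9% of thinned LPA microglia and 5.94% to 7.78% of vehicle microglia, beside 18.8% to 23.1% of neurons. Rftn1 was in 22.5% to 30.7% and 1.98% to 4.44%, beside 4.89% to 6.57% of neurons. Without thinning Myo5a was in 43.8% to 52.2% of LPA and 9.43% to 10.7% of vehicle microglia, and Rftn1 in 35.5% to 45.9% and 3.77% to 7.22%. Vehicle microglia thus held both genes less often than neurons did, and LPA microglia more often.

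In 353 of 1328 LPA microglia (26.6%) at least 1 UMI of Spp1 or Gpnmb was counted, and in 0 of 527 vehicle microglia, which allows a share of up to 0.569%. This limit covers counting error over nuclei pooled from 3 libraries of lower depth, and concerns nuclei with a UMI, not nuclei that express the genes. Within LPA libraries all 10 genes were higher in these positive nuclei than in the nuclei free of both, in each of the 3 libraries. In each of the 10, the free LPA nuclei of every library were also above all vehicle microglia. Free means only that no UMI of Spp1 or Gpnmb was counted: summed markers of activated microglia were at 2287 to 3457 CPM in free LPA nuclei against 1060 to 1321 CPM in vehicle microglia, microglial markers at 7491 to 8277 against 9878 to 11718 CPM, and macrophage markers at 587 to 821 against 125 to 163 CPM. This contrast belongs to the choice of the genes too, and is given without a test. How many of all genes separated in this way was not counted here either. Of the 10, 8 passed the filter on low counts there, Dkk2 and Gm13391 not, and nothing is read from the calls, which took in 2.85% of the 8150 genes tested. A nucleus with more UMIs is more likely to be counted as positive. The median over the 10 genes of the log2 ratio of positive to free nuclei was 2.26 ± 0.34 over libraries. It was 2.05 when nuclei were split into positive and free after thinning to 1000 UMIs. The 10 genes were still counted there from all UMIs, and nuclei taken as free could hold UMIs of Spp1 or Gpnmb. With no positive nucleus in vehicle libraries, no comparison of groups was possible among them.

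Dkk2, Gm13391 and Lama3 were the most concentrated. Dkk2 was at 393, 311 and 272 CPM in positive and 6.87, 11.4 and 52.5 CPM in free nuclei, with ratios from 5.19 to 57.3 between libraries, so its mean of 29.9 rests on few UMIs. Gm13391 was at 255, 214 and 172 CPM in positive and 18.9, 12.9 and 22.5 CPM in free nuclei, a mean ratio of 12.6, and Lama3 at 489, 494 and 366 against 41.2, 49.96 and 52.5 CPM, a mean ratio of 9.58. Their level in free LPA nuclei was low, but above the 0 to 4.16 CPM of vehicle libraries.

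Anapc15 lay at the other end. It was at 1425, 1088 and 1124 CPM in positive and 436, 363 and 549 CPM in free nuclei, a mean ratio of 2.77 (2.05 to 3.27). Its free nuclei were 7.79 times as high as vehicle microglia. Selenop was at 1026, 835 and 1014 CPM in positive and 319, 237 and 335 CPM in free nuclei, a mean ratio of 3.25, with free nuclei 2.86 times as high as vehicle microglia. For Anapc15 the ratio of free LPA nuclei to vehicle microglia was thus larger than that of positive to free nuclei, and for Selenop it was smaller.

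The remaining genes were between. Mean ratios of positive to free nuclei were 3.91 for Myo5a, 4.07 for Rftn1, 4.21 for Plek, 5.90 for Bcar3 and 6.12 for Apobec1. Free LPA nuclei were 4.17 times as high as vehicle microglia in Myo5a, 5.40 times in Rftn1, 7.08 times in Bcar3, 2.12 times in Plek and 1.91 times in Apobec1. Plek and Apobec1 thus came closest to vehicle in the free nuclei, at 183 to 263 against 71.2 to 132 CPM and at 118 to 204 against 71.2 to 96.4 CPM.

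Positive nuclei often held UMIs of several of the 10 genes. Whether the genes met in a nucleus more often than their single shares give was not tested. Thinned to 1000 UMIs, positive nuclei held UMIs of 4.90, 4.39 and 4.16 of them on average and free LPA nuclei of 1.29, 1.07 and 1.46. Nuclei with at least 3 of the 10 made up 92.3%, 84.0% and 83.3% of positive nuclei, 16.8%, 12.9% and 22.7% of free LPA nuclei and 1.85%, 0.660% and 1.11% of vehicle microglia.

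Microglia fell into 6 sub-clusters from genes other than the 10. Sub-clusters 0 and 1, led by Selplg, Tmem119, Siglech and Cx3cr1, held 651 LPA and 513 vehicle nuclei and are called homeostatic here. Sub-cluster 2, led by Gpnmb, Hpse and Spp1, held 449 LPA nuclei and 1 vehicle nucleus, more LPA nuclei than the 353 positive ones, so that part of it counted as free. Sub-cluster 7, led by Anapc15, Cd83 and Ctsb, held 176 and 3, sub-cluster 12, led by interferon-induced genes such as Rnf213, 40 and 7, and sub-cluster 13, led by DNA replication genes, 12 and 3.

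**Figure D2:**
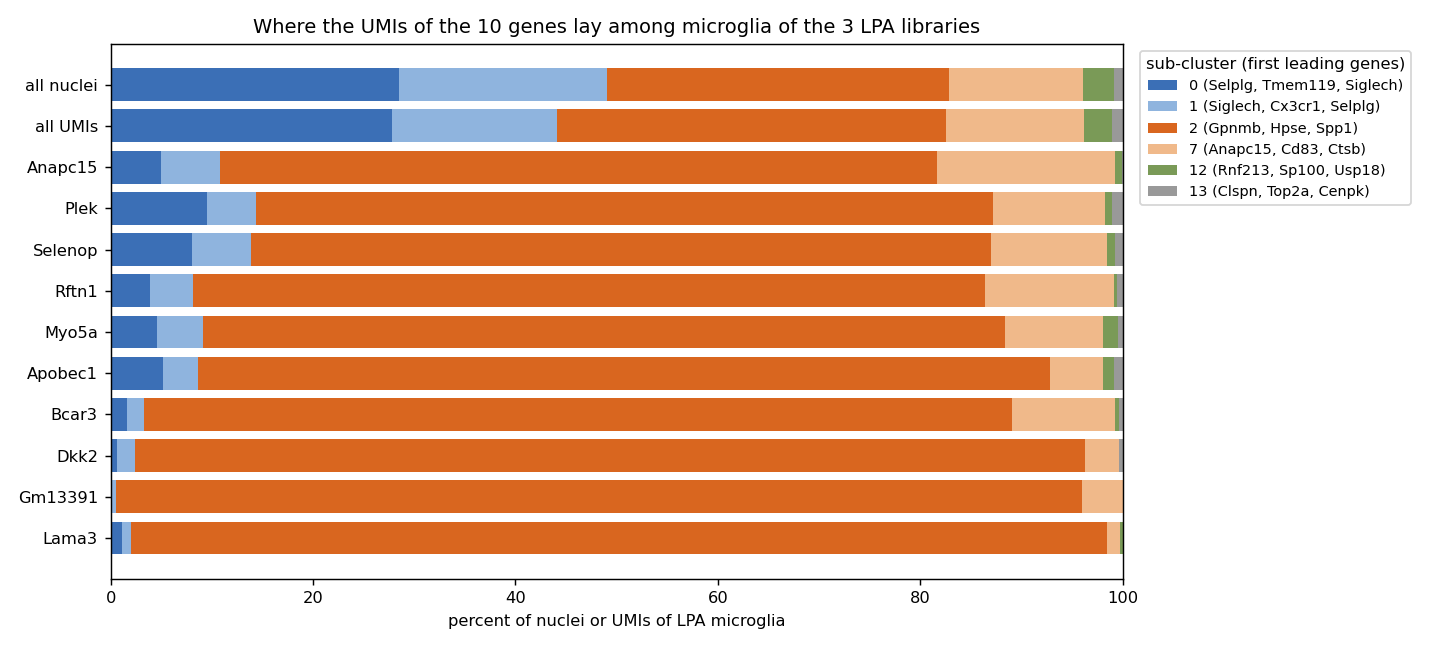
Share in percent (horizontal axis) of the nuclei, of all UMIs and of the UMIs of each of the 10 genes that lay in each of 6 sub-clusters of LPA microglia, pooled over 3 libraries, with a color per sub-cluster. Sub-cluster 2 (orange) held 38.4% of all UMIs but 70.8% to 96.4% of those of the 10 genes.

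Sub-cluster 2 held 38.4% of all UMIs of LPA microglia. Of the UMIs of the 10 genes it held between 70.8% (Anapc15) and 96.4% (Lama3), with Gm13391 at 95.5%, Dkk2 at 93.9%, Bcar3 at 85.9% and Apobec1 at 84.2%. Sub-cluster 7 held 13.7% of all UMIs, 17.7% of those of Anapc15 and 1.34% of those of Lama3. Anapc15 was therefore above its share of UMIs in both of the sub-clusters nearly absent from vehicle libraries, and Lama3 in 1.

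Between homeostatic nuclei of the groups the picture split. This contrast is part of the one that chose the genes and is given without a test. The share of all genes without overlap was not counted. Anapc15 was at 171 ± 55.1 CPM in LPA and 46.1 ± 13.4 CPM in vehicle homeostatic microglia, Myo5a at 130 ± 22.7 and 80.6 ± 9.55 CPM, and Rftn1 was at 77.9 and 39.5 CPM, with no overlap between libraries. Taken apart, Anapc15 did not overlap in either sub-cluster, at 127 against 30.3 CPM in sub-cluster 0 and 242 against 64.0 CPM in sub-cluster 1. Myo5a was at 106 and 97.6 CPM in sub-cluster 0, with overlap, and at 171 and 73.4 CPM in sub-cluster 1, with none, and Rftn1 overlapped in sub-cluster 0 too. Lama3 did not overlap over both but rested on 9 and 2 UMIs, and overlapped in each. Over both, Bcar3, Plek, Selenop and Apobec1 overlapped between groups, although Selenop did not in sub-cluster 0 (145 against 83.6 CPM), and Apobec1 was at 78.2 CPM in LPA and 85.5 CPM in vehicle nuclei. Dkk2 had 7 UMIs against 1 and Gm13391 1 against 0. Homeostatic Plek was at 135 and 103 CPM, and Selenop at 161 and 108 CPM. Apobec1 was thus 4.72 times as high in LPA as in vehicle microglia as a whole and 0.914 times as high in the homeostatic ones.

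Macrophages of the brain's borders are relatives of microglia that were not used to choose the genes. They numbered 36, 39 and 29 in LPA and 21, 65 and 25 in vehicle libraries and carried Mrc1, F13a1 and Cd163. Several of the 10 genes were already high there in vehicle brains, and none passed the test between groups. Of the 10, 6 passed the filter on low counts and 0 were called by edgeR's quasi-likelihood test with Benjamini-Hochberg adjustment, where 4 of 1846 genes (0.217%) were called, and 2 of the 6 had an unadjusted p under 0.05, beside 6.55% of all genes. DESeq2 called 0 as well, with 1 under 0.05. Lama3, Dkk2 and Gm13391 had at most 1 UMI in any macrophage library.

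Apobec1 was at 295, 325 and 615 CPM in LPA and 77.3, 214 and 112 CPM in vehicle macrophages, with no overlap and a log2 fold change of 1.29 (SE 0.37). In edgeR's quasi-likelihood test with Benjamini-Hochberg adjustment its adjusted p was 0.275, and without a filter on low counts 0.0497 at a log2 fold change of 1.40. With 1 library left out its log2 fold change ranged from 0.97, without LPA library 3 (adjusted p of 0.789), to 2.01, without vehicle library 2 (adjusted p of 0.182). Rftn1 was at 393, 280 and 376 CPM in LPA and 155, 163 and 247 CPM in vehicle macrophages, also with no overlap, a log2 fold change of 0.88 (SE 0.30) and an adjusted p of 0.412 by edgeR. Summed microglial markers were also higher in LPA macrophages, at 2092 to 3346 CPM against 1213 to 1653 CPM, and macrophage markers lower, at 7478 to 12525 against 13762 to 15352 CPM. Spp1 had at most 2 UMIs and Gpnmb at most 1 in any macrophage library. The part of microglial RNA in these values was not tested.

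Myo5a had its highest level in macrophages, at 1296, 1501 and 1144 CPM in LPA and 1082, 1541 and 1191 CPM in vehicle libraries. Anapc15 was at 422, 459 and 700 CPM against 483, 488 and 292 CPM, and Selenop at 442, 291 and 205 against 251, 445 and 494 CPM. The groups overlapped in all 3 genes. Anapc15 in vehicle macrophages was thus 421 ± 112 CPM, above the 57.7 ± 14.95 CPM of vehicle microglia and below the 675 ± 77.9 CPM of LPA microglia.

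In the other 9 populations few of the genes passed the test, and those that did were mainly in astrocytes. Of 90 pairs of a gene and a population 68 passed the filter and 4 were called by edgeR's quasi-likelihood test with Benjamini-Hochberg adjustment, 3 higher and 1 lower, while 2.24% of the 111071 tests over all genes in these populations were called. An unadjusted p under 0.05 was found in 21 of the 68 pairs, beside 11.5% over all genes. The calls were in astrocytes (3), where 8 of the 10 genes were tested and 8.18% of 14617 genes were called, and oligodendrocytes (1), where 5.34% of 14471 genes were. None of the 10 were called in oligodendrocyte precursors, where 0.162% of all genes tested were, in meningeal cells (0.514%), pericytes and smooth muscle (0.245%), endothelial cells (0%), ependymal cells (3.69%), choroid plexus (0.0397%) or neurons (0.0651%).

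**Figure D3:**
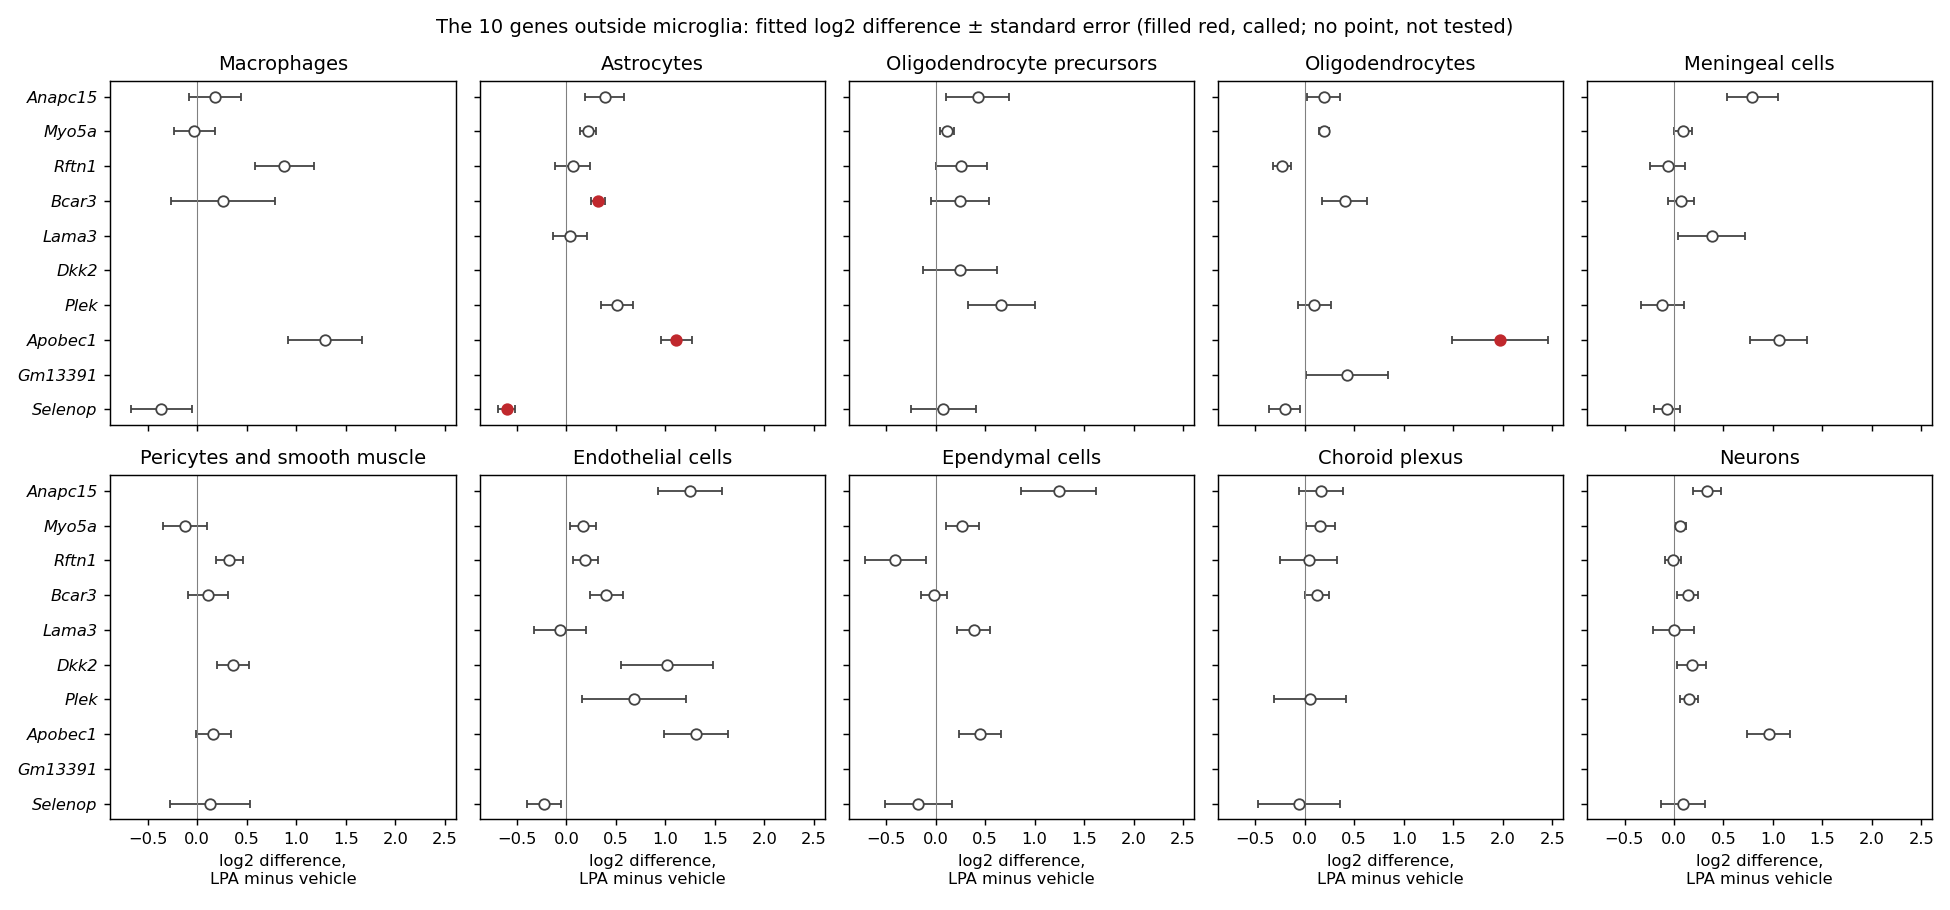
Fitted log2 fold change of LPA over vehicle libraries (horizontal axis) with bars of 1 standard error for the 10 genes in macrophages and 9 other populations, with no point where a gene was not tested. Filled red points passed an adjusted p of 0.05 and a log2 fold change of 0.25 in size, and these were Apobec1, Bcar3 and Selenop in astrocytes and Apobec1 in oligodendrocytes.

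Apobec1 in astrocytes was at 18.9, 19.2 and 21.3 CPM in LPA and 7.15, 9.13 and 10.99 CPM in vehicle libraries, from 119, 138 and 119 UMIs against 25, 56 and 54. It rose by a log2 fold change of 1.11 (SE 0.16), with an adjusted p of 0.000141 by edgeR. The UMIs are few for 1596 to 2088 nuclei per LPA library, and astrocytes of LPA libraries also held more UMIs of Spp1 (17, 22 and 18 against 2, 4 and 9) and of Gpnmb (27, 59 and 43 against 3, 6 and 3). The difference of Apobec1 in astrocytes was 3.42% of its difference in microglia, against 1.17% for Gpnmb, 0.629% for Spp1 and 0.285% for Anapc15. Summed microglial markers were lower in LPA than in vehicle astrocytes, at 252 to 304 against 322 to 363 CPM, as they were in LPA microglia. How far free microglial RNA entered these values was not tested.

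Bcar3 had its highest population mean in astrocytes, at 250, 249 and 268 CPM in LPA and 228, 195 and 200 CPM in vehicle astrocytes. It rose by a log2 fold change of 0.32 (SE 0.07; adjusted p of 0.00591 by edgeR), and without LPA library 3 the adjusted p was 0.0572. Selenop fell in astrocytes, from 97.8, 95.7 and 86.3 CPM in vehicle to 56.5, 66.7 and 58.2 CPM in LPA libraries. Its log2 fold change was -0.61 (SE 0.08), with an adjusted p of 0.000103 by edgeR. The direction was thus opposite to that in microglia, and every LPA library lay below every vehicle library.

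In oligodendrocytes, where 8 of the 10 genes were tested, Apobec1 had 13, 20 and 16 UMIs in LPA and 0, 8 and 6 in vehicle libraries, and was called higher with a log2 fold change of 1.97 (SE 0.48; adjusted p of 0.0229 by edgeR). The counts are small, and the call was lost in 6 of 13 other settings, with an adjusted p of 0.112 without LPA library 2, 0.0554 without LPA library 3 and 0.0614 without vehicle library 3. Myo5a, at 182, 182 and 177 CPM against 157, 158 and 159 CPM, had an adjusted p of 0.0419 by edgeR but a log2 fold change of 0.19, under the limit of 0.25.

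Anapc15 and Apobec1 also had unadjusted p under 0.05 where they were not called. Anapc15 had 19, 24 and 21 UMIs in LPA and 6, 6 and 10 in vehicle endothelial cells (log2 fold change of 1.25, adjusted p of 0.448 by edgeR), where 0% of 11384 genes were called and 6.18% had an unadjusted p under 0.05. In ependymal cells it had 21, 16 and 27 against 6, 5 and 4 UMIs (log2 fold change of 1.24, adjusted p of 0.0709). Apobec1 had 29, 20 and 21 against 8, 8 and 7 UMIs in endothelial cells and 41, 34 and 41 against 21, 23 and 26 in neurons. All of these were a small part of the microglial difference, 3.49% for Apobec1 and 1.59% for Anapc15 in endothelial cells, beside 2.93% for Spp1 there.

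Dkk2 had its highest population mean in pericytes and smooth muscle in both groups. It was there at 161, 142 and 179 CPM in LPA and 109, 140 and 116 CPM in vehicle libraries (log2 fold change of 0.36, SE 0.16). Its adjusted p of 0.594 by edgeR did not pass. Pericytes were the population of highest Dkk2 in LPA brains too, and microglia, at 113 ± 15.1 CPM, came next, above endothelial cells at 23.1 CPM. Within LPA microglia, sub-cluster 2 was at 276 CPM, pooled over libraries, which is above pericytes.

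The order of populations shows where the 10 genes were expressed in brains without LPA. In vehicle libraries macrophages had the highest level of Anapc15 (421 CPM), Myo5a (1272), Apobec1 (135) and Selenop (397), pericytes and smooth muscle of Rftn1 (326) and Dkk2 (122), astrocytes of Bcar3 (208), ependymal cells of Lama3 (81.8), and microglia of Plek (102). For Plek the next population, macrophages at 97.2 CPM, overlapped with microglia, as did pericytes and microglia with macrophages for Apobec1. For Bcar3 the ependymal cells, at 188 CPM, overlapped with astrocytes. Gm13391 had a mean of at most 1.94 CPM in any vehicle population. Only Plek thus had its highest mean in vehicle microglia.

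**Figure D4:**
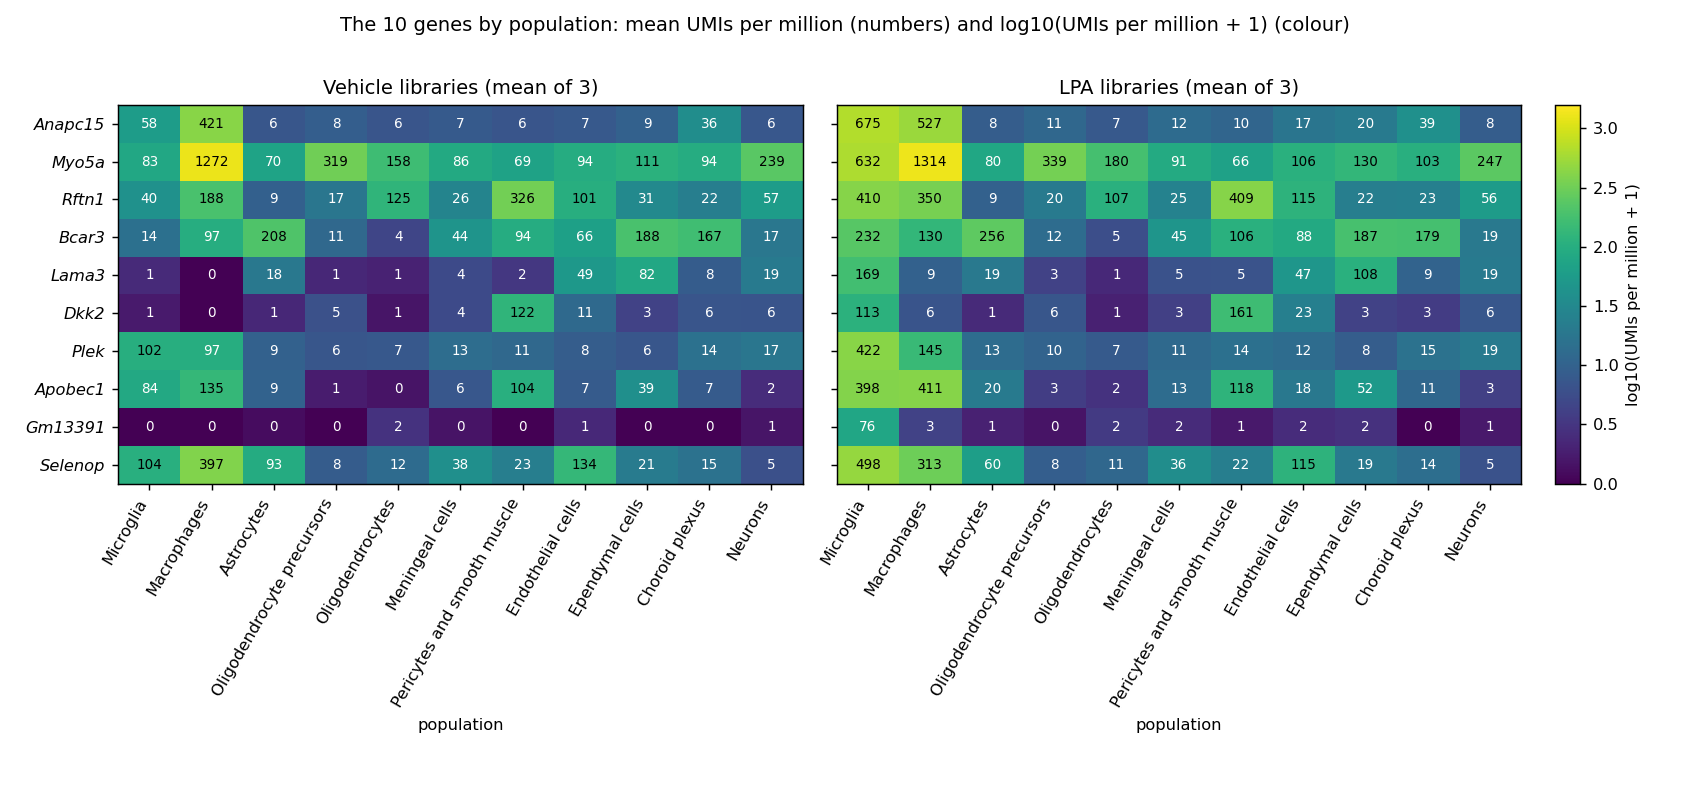
Mean CPM of the 10 genes (rows) in 11 cell populations (columns), printed in each field and shown by color as log10(CPM + 1), for vehicle libraries on the left and LPA libraries on the right (n = 3 each). The field of microglia changes most between the sides, from 57.7 to 675 CPM in Anapc15, while Dkk2 stays highest in pericytes and Bcar3 in astrocytes.

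In LPA libraries microglia held the highest mean of Anapc15, Rftn1, Lama3, Plek, Gm13391 and Selenop, with pericytes and smooth muscle overlapping for Rftn1 at 409 CPM. Macrophages kept that of Myo5a, and of Apobec1 at 411 CPM against 398 CPM in microglia, which overlapped. Astrocytes kept that of Bcar3 at 256 CPM, and pericytes that of Dkk2 at 161 CPM. The means of microglia take in homeostatic nuclei. In sub-cluster 2 alone, pooled over LPA libraries, Bcar3 was at 524, Dkk2 at 276, Apobec1 at 870 and Myo5a at 1309 CPM.

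Partner genes, which mix complex members, receptors, cofactors and relatives of the 10, passed the test in microglia in 8 cases, in both directions. Of 83 such genes 56 were tested and 8 were called by edgeR's quasi-likelihood test with Benjamini-Hochberg adjustment, 6 higher and 2 lower, beside 9.23% of all 8904 genes tested. The median log2 fold change of the 56 was 0.12.

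**Figure D5:**
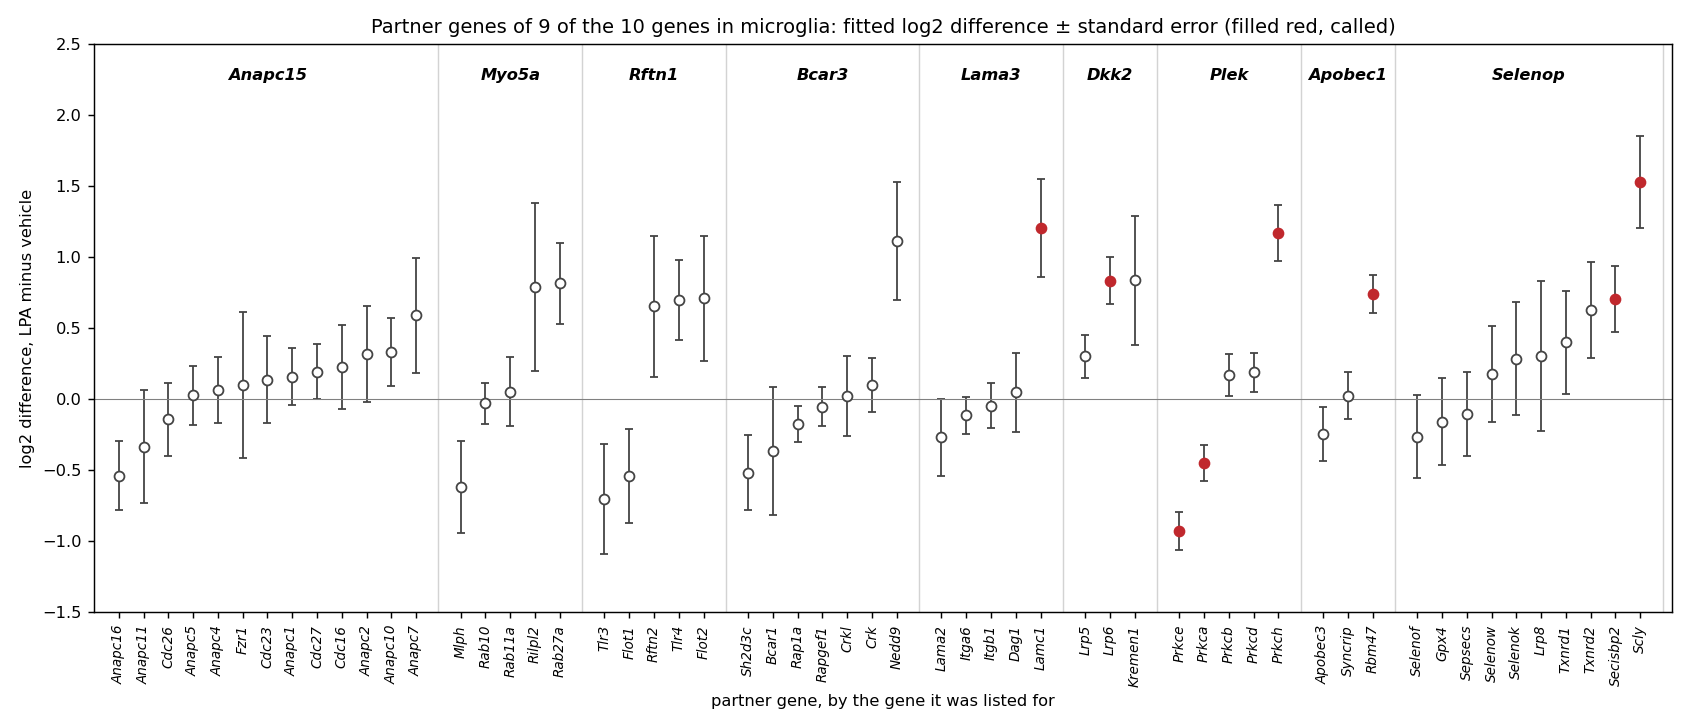
Fitted log2 fold change of LPA over vehicle microglia (vertical axis) with bars of 1 standard error for the 56 tested partner genes. These are complex members, receptors, cofactors and relatives of 9 of the 10 genes, grouped by the gene they were listed for. Filled red points passed the test, 6 above and 2 below 0.

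None of the 13 tested subunits and activators of the anaphase-promoting complex were called, and their median log2 fold change was 0.14, beside 3.70 for Anapc15. The test covered 13 of 15 listed genes. None of 5 tested class V myosins and Rab adaptors, 5 raft proteins and Toll-like receptors, or 7 relatives and Cas partners of Bcar3 were called. With 9.23% of all 8904 genes tested in microglia called, lists this short could hold none, and nothing is read from these counts. Rab27a, which recruits myosin Va to melanosomes, had a log2 fold change of 0.82 (adjusted p of 0.0685 by edgeR). Nedd9, a Cas protein, had 1.11 (adjusted p of 0.0935), Rftn2 had 0.65 (adjusted p of 0.524), Sh2d3c had -0.52 (adjusted p of 0.266) and Bcar1, the Cas protein for which Bcar3 is best known, had -0.36. Myo5b was too low to be tested, with 2, 9 and 5 UMIs in LPA and 0, 3 and 0 in vehicle microglia.

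Lamb3, a laminin β chain that joins Lama3 in epithelial laminin, was all but absent, with 1, 0 and 4 UMIs in LPA and 0, 1 and 0 in vehicle microglia. Lamc1, the widespread γ1 chain, rose by a log2 fold change of 1.20 (SE 0.34; adjusted p of 0.0179 by edgeR), the only one called of 5 laminin and receptor genes tested. Its levels after TMM scaling were 48.0, 59.4 and 65.7 CPM in LPA and 48.7, 16.7 and 23.7 CPM in vehicle libraries, so that vehicle library 1 overlapped with LPA. The call was lost without vehicle library 2 (log2 fold change of 0.64, adjusted p of 0.541) and without LPA library 3 (adjusted p of 0.0514).

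Of the Dickkopf receptors, Lrp6 rose, at 289, 253 and 322 TMM-scaled CPM in LPA against 140, 144 and 237 CPM in vehicle microglia (log2 fold change of 0.83, SE 0.16, adjusted p of 0.000384 by edgeR). Without vehicle library 2 the adjusted p was 0.0533. Kremen1 had 0.84 (adjusted p of 0.315). Of the cofactors of Apobec1, Rbm47, an RNA-binding protein that takes part in editing, rose to 626, 550 and 606 from 298, 384 and 363 TMM-scaled CPM (log2 fold change of 0.74, SE 0.13, adjusted p of 0.000101 by edgeR). The classical cofactor A1cf had 0, 1 and 0 UMIs in LPA microglia and none in vehicle.

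Of 5 tested protein kinases C, which phosphorylate pleckstrin, 1 rose and 2 fell. Prkcd, at 0.19 (adjusted p of 0.511 by edgeR), and Prkcb, at 0.17 (adjusted p of 0.588), were not called. Prkch rose by a log2 fold change of 1.17 (SE 0.20; adjusted p of 4.2e-05 by edgeR), while Prkce fell, with -0.93 (SE 0.13; adjusted p of 2.9e-06), and Prkca fell, with -0.45 (SE 0.13; adjusted p of 0.0159). The call of Prkca was lost without LPA library 2 (adjusted p of 0.0941), LPA library 3 (0.0865) or vehicle library 1 (0.109). Plek2 had 1 UMI in all. Among selenium genes, Scly, the lyase that frees selenium from selenocysteine, rose by 1.53 (SE 0.32; adjusted p of 0.000883 by edgeR), and Secisbp2, which is needed to insert selenocysteine, by 0.70 (SE 0.23; adjusted p of 0.0491). The other 8 of 10 tested selenium genes were not called, among them the selenoprotein P receptor Lrp8 at 0.31 (adjusted p of 0.828). Scly lost its call without vehicle library 2 (adjusted p of 0.155). Secisbp2 stood close to the threshold, and its call was lost with any 1 of the 6 libraries left out (adjusted p from 0.0545 to 0.162).

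The 10 genes lie on 9 chromosomes. Bcar3 and Dkk2 share chromosome 3, at chr3:122294136-122530191 and chr3:132085292-132180304 of GENCODE M21 on GRCm38. Anapc15 (chr7:101863715-101901849, plus strand) overlaps Tomt and Folr1, which had 8 and 6 UMIs in LPA microglia and 0 and 1 in vehicle microglia, and its neighbor Lamtor1 was at 51.8 against 64.7 CPM. The difference at Anapc15 was thus not shared by Lamtor1. Folr2, 6521 bases away, was higher in LPA microglia too, with 24 UMIs against 1 in vehicle microglia. Inppl1 was at 50.6 against 40.1 CPM, Numa1 at 143 against 145 CPM and Lrrc51 at 19.8 against 20.7 CPM. Plek (chr11:16971206-17052381, minus strand) overlaps Cnrip1 on the other strand, which had 669 UMIs in LPA and 46 in vehicle microglia, or 255 against 59.5 CPM. Selenop (chr15:3268547-3280508, plus strand) overlaps Ccdc152 on the other strand, with 36 and 1 UMIs.

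Whether the counting used strand is not given in the sources used here, so reads of Plek and Cnrip1, and of Selenop and Ccdc152, may not be told apart. Bcar3 overlaps Gm42836, with 29 and 1 UMIs. Gm13391 (chr2:6472000-6478619, plus strand) lies 25610 bases from Usp6nl, which was at 76.5 CPM in LPA and 97.0 CPM in vehicle microglia and did not share its pattern.

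Likeness of pattern was measured as Pearson's r of log2(CPM + 1) over the 22 means of a population and group, among 17419 genes with at least 5 CPM in one of them. These points share libraries, and r is a description. Anapc15 was most like Slamf6 (0.955) and Dnajc13 (0.949), Plek most like Clta (0.963) and Tfe3 (0.953), and Selenop most like Nrros (0.936) and Manba (0.933). Gm13391 was most like Mmp27 (0.938) and Mcoln3 (0.871), Apobec1 most like Ggta1 (0.927) and Zfp217 (0.907), and Lama3 most like Nlrc3 (0.811) and Tomm7 (0.789).

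Myo5a was most like Ugcg (0.890) and Gm50020 (0.878), Rftn1 most like Itga4 (0.878) and Retreg3 (0.854), Bcar3 most like Pard3b (0.881) and Trak1 (0.872), and Dkk2 most like Nts (0.829) and Higd1b (0.812). Among the 10 themselves Anapc15 and Plek were alike at 0.903, and Apobec1 and Selenop at 0.721.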

How the data were processed

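Condition and replicate number were taken from the labels. The authors deposited filtered matrices of raw UMI counts made with Cell Ranger 4.0.0 on a pre-mRNA reference of mm10, so intronic reads are counted and no normalization was applied. The counting strand is not given in the sources used here. Barcodes were dropped under 300 genes, over 1% of mitochondrial UMIs or with UMIs beyond the third quartile plus 1.5 interquartile ranges, which kept 87.7% to 91.9%. Scanpy 1.11.5 (Python 3.11.15, leidenalg 0.10.2) clustered nuclei on 3000 variable genes, 40 principal components, 30 neighbors and resolution 1, and immune nuclei again on 2000 variable genes and 20 components. The variable genes left out the 10 genes, their partner genes, all markers, genes named in the paper, and sex-linked or mitochondrial genes. Clusters were named by markers, and those scoring over 0.5 for a second class at higher depth, among them 1143 immune nuclei, stayed unnamed. So did a mixed cluster of 1421 nuclei at low depth, and non-immune clusters with over 50% of nuclei called by Scrublet. The limits for naming were chosen once the clusters were known. Names mean marker-like nuclei. Doublets called by Scrublet (expected rate of 0.08) within named clusters were left out only as an alternative.

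Each library is 1 mouse per the study, and UMIs were summed per library and population. edgeR 4.0.16 (R 4.3.3) tested these sums by quasi-likelihood after filterByExpr and TMM scaling, and p-values were adjusted by Benjamini-Hochberg over all genes of a population. A gene was called where the adjusted p was below 0.05 and the log2 fold change reached 0.25 in either direction, the size limit of the study. On simulated counts at a log2 fold change of 1 the test recovered 58% of changed genes in microglia, 55% in macrophages and 83% in astrocytes. The 10 genes, the lists and the tests were chosen with earlier results of these data known. Named are the 10 genes everywhere, partner genes that were called, 12 partner genes regardless of value (1 of them is not reported here) and the 2 most similar genes of each, and Rab27a, Nedd9, Prkcb and Prkcd were named after their values were seen. The alternatives were each library left out, the replicate number as a block, DESeq2 1.42.0 size factors and test, no filter on low counts, no mitochondrial filter, Scrublet calls left out, resolution 2 and other thinning depths. Sex as a covariate and no thinning were chosen after seeing the data. Counting intervals and limits at 0 (3 counts) cover counting error only. Promoter windows are from RefSeq on GRCm38.p6, and 9 of the 10 genes had at least 1. Pairing was checked on deviations from group means. Correlations of same-numbered libraries ranged from -0.167 to 0.200, and those of different-numbered libraries from -0.318 to 0.239. Replicates 1 (0.058 to 0.122) and 2 (0.080 to 0.200) were positive in every population, and replicate 3 ranged from -0.167 to 0.034. With 3 libraries per group this check cannot exclude pairing.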

Additional observations from a re-analysis of the deposited data

Results flagged for a closer look

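Selenop, which carries selenium, had a log2 fold change of -0.61 in astrocytes, where every LPA library was below every vehicle library, while in microglia every LPA library was above every vehicle library. The difference between the populations was not tested.

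Nuclei left unnamed because their immune sub-cluster also carried markers of another cell type, 688 in LPA and 455 in vehicle libraries, are used in no comparison above. The 10 genes summed to a mean of 1015 CPM in LPA libraries (897 to 1153) and 518 CPM in vehicle libraries (435 to 613) in these nuclei. What part of this came from microglial RNA was not tested.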

How the results depend on the processing

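Among the 10 genes in macrophages, 0 were called, in a range of 0 to 0 when 1 library was left out, and 1 (Apobec1) with no filter on low counts. In the other 9 populations 4 pairs were called, 2 to 5 when 1 library was left out, with 2 without LPA library 3. Of partner genes in microglia 8 were called, 5 to 8 when 1 library was left out, with 5 without LPA library 3 and 5 without vehicle library 2. The median log2 fold change of the 10 genes in microglia, 3.61, ranged from 3.30 to 3.79 when 1 library was left out and was 3.23 at resolution 2. The median over genes of the share of LPA microglia with a UMI, 24.1% after thinning to 1000 UMIs, was 48.1% after thinning to 2000 and 36.2% with no thinning. Thinning to 2000 kept only nuclei with at least 2000 UMIs. It left out most LPA microglia, whose median was below 2000 in each library. The cause of these moves was not tested.

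With the replicate number as a block, 0 genes were called in macrophages, 3 pairs in other populations and 7 partner genes, and the microglial median was 3.55. Apobec1 in oligodendrocytes (adjusted p of 0.0613 by edgeR) and Secisbp2 (0.0823) lost their calls. Correlations of same-numbered libraries (-0.167 to 0.200) lay within the range of different-numbered ones (-0.318 to 0.239), which does not exclude pairing. DESeq2 gave no adjusted p for Apobec1 in oligodendrocytes.

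Apobec1 and Selenop in astrocytes and Rbm47, Prkce and Prkch in microglia kept their calls in all 14 other settings, Lamc1 in 11 and Prkca in 9. No result listed here changed direction. Over all genes, calls in microglia ranged from 442 to 926 by setting (822 as reported), in macrophages from 0 to 17 (4) and in meningeal cells from 21 to 552 (69). Vehicle microglia held 97 to 318 nuclei per library, which limits the genes near 0 there.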
